A study of Homo sapiens with 6 samples.

Results

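The genes described here encode the subunits, activators and assembly factors of the proteasome. They were chosen by name, as probe sets of an Affymetrix array annotated to exactly 1 gene symbol made of PSMA, PSMB, PSMC, PSMD, PSME, PSMF or PSMG and a number, without PSMB8, PSMB9 and pseudogenes. A probe set is a group of short probes that together measure 1 target transcript. The rule found 79 probe sets of 54613 tested, which gave 40 of 19775 genes. PSMA6 and PSME2 were present only on probe sets annotated to several genes, and PSMB11, PSMC5, PSMD7 and PSMD13 were not found among probe sets with 1 symbol, so these 6 genes were not analysed here. The 40 genes were 15 of the core particle, 8 of the base and 6 of the lid of the regulatory particle, 4 activators and inhibitors and 7 assembly chaperones.

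The arrays came from MDA-MB-231, an established human breast cancer cell line. Cells had received either an HS3ST2 expression plasmid, which carries the gene of an enzyme that sulfates heparan sulfate chains, or a control vector, with 3 replicates of each. The labels state neither the time after transfection, the promoter of the plasmid nor any selection of cells. The study's design text calls the replicates independent, but nothing says whether they were separate cultures. The p-values therefore measure only how far these arrays spread, which may be technical. HS3ST2 itself was at 0.16, 0.04 and -0.04 log2 in the HS3ST2-labelled arrays, against -0.22, 0.17 and -0.11 in the control arrays. The groups overlapped (difference 0.11 ± 0.10, SE, limma adjusted p 0.523), and it is not known whether this probe set sees the plasmid's transcript, so each direction below rests on the labels.

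The deposited values are log2 values centred on the median of the 6 arrays for each probe set. A value of 0.2 therefore means 0.2 log2 above that gene's own middle value, and levels cannot be compared between genes or checked against marker genes of the cell line. A gene's value is the mean of its probe sets. Changes were called with limma, a linear model fitted across all 19775 genes, where the p adjusted by Benjamini-Hochberg lay under 0.05. In bulk RNA, fewer cells expressing a gene and less of its RNA per cell cannot be told apart.

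The proteasome degrades proteins tagged with ubiquitin. Its core particle is a barrel of stacked rings, in which alpha subunits guard the entry and beta subunits hold the catalytic sites. The regulatory particle caps the barrel: its lid removes ubiquitin and its base, a ring of ATPases with large scaffold subunits, unfolds the substrate and feeds it in. Most subunit genes are constantly expressed, and the transcription factor NFE2L1 raises them together when proteasome activity is short. In response to interferon, inducible catalytic subunits replace the constitutive ones and form the immunoproteasome.

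Promoter sequences are shown for 5 of these genes, chosen after their values were seen. PSMB10 had the largest rise and PSMD14 the largest fall, while PSMB3, PSMD3 and PSME4 fell and hold the core of the antioxidant response element, the site that NFE2L1 and its relatives bind. Each is the 250 bases before the gene's start, 5′ to 3′ on the gene's strand, from RefSeq on GRCh38.p14. Capitals mark 3 motifs, searched on both strands. The antioxidant response element core was searched as TGACNNNGC. The box bound by the factor NF-Y was searched as CCAAT, and the core bound by ETS factors as CCGGAA. The 2 CCAAT matches of PSMD14, at positions -48 and -45 from the start, lie on opposite strands and share bases. PSMB10 has none of the motifs in this window.
PSMB10, chr16:67936851-67937100, minus strand: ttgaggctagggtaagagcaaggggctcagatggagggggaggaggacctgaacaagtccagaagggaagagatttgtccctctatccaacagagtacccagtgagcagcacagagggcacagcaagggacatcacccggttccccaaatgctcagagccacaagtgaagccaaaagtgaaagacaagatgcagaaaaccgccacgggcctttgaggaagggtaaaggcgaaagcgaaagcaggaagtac
PSMD14, chr2:161308175-161308424, plus strand: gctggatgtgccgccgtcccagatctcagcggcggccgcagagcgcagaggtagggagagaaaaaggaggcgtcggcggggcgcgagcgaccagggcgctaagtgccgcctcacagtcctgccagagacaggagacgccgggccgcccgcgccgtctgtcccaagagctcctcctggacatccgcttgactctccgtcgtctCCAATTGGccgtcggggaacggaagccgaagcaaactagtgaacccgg
PSMB3, chr17:38752491-38752740, plus strand: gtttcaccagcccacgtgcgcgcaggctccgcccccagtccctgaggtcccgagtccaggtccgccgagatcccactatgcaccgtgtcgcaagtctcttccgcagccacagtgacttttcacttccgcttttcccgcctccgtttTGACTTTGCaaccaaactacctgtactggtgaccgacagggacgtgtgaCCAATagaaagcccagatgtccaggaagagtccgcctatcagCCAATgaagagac
PSMD3, chr17:39980557-39980806, plus strand: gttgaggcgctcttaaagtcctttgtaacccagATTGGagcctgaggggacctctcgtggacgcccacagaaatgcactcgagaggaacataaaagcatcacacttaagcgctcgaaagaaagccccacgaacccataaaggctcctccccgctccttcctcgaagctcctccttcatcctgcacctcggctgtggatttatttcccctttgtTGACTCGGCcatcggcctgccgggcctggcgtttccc
PSME4, chr2:53970994-53971243, minus strand: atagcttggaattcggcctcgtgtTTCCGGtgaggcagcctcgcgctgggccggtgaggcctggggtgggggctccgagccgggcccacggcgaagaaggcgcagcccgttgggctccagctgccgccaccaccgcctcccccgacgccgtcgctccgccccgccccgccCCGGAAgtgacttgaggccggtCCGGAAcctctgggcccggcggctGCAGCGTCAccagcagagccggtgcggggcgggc

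Of the 40 genes, 24 fell in the HS3ST2-labelled arrays, 3 rose and 13 did not pass. Over all genes, 13.0% were called lower and 11.5% higher. The median difference, HS3ST2-labelled minus control, was -0.27 log2 over the proteasome genes and 0.01 over all genes. The 24 falls were small and of like size, with a smallest of 0.18, a median of 0.34 and a largest of 0.50 log2, so that the median gene that fell stood at 0.792 times its control value. The mean over the 40 genes was -0.10, -0.08 and -0.09 in the HS3ST2-labelled arrays, against 0.11, 0.10 and 0.07 in the control arrays. The groups did not overlap for 27 genes that were lower and 4 that were higher, where 20.9% and 19.5% of all genes separated in those directions.

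**Figure D1:**
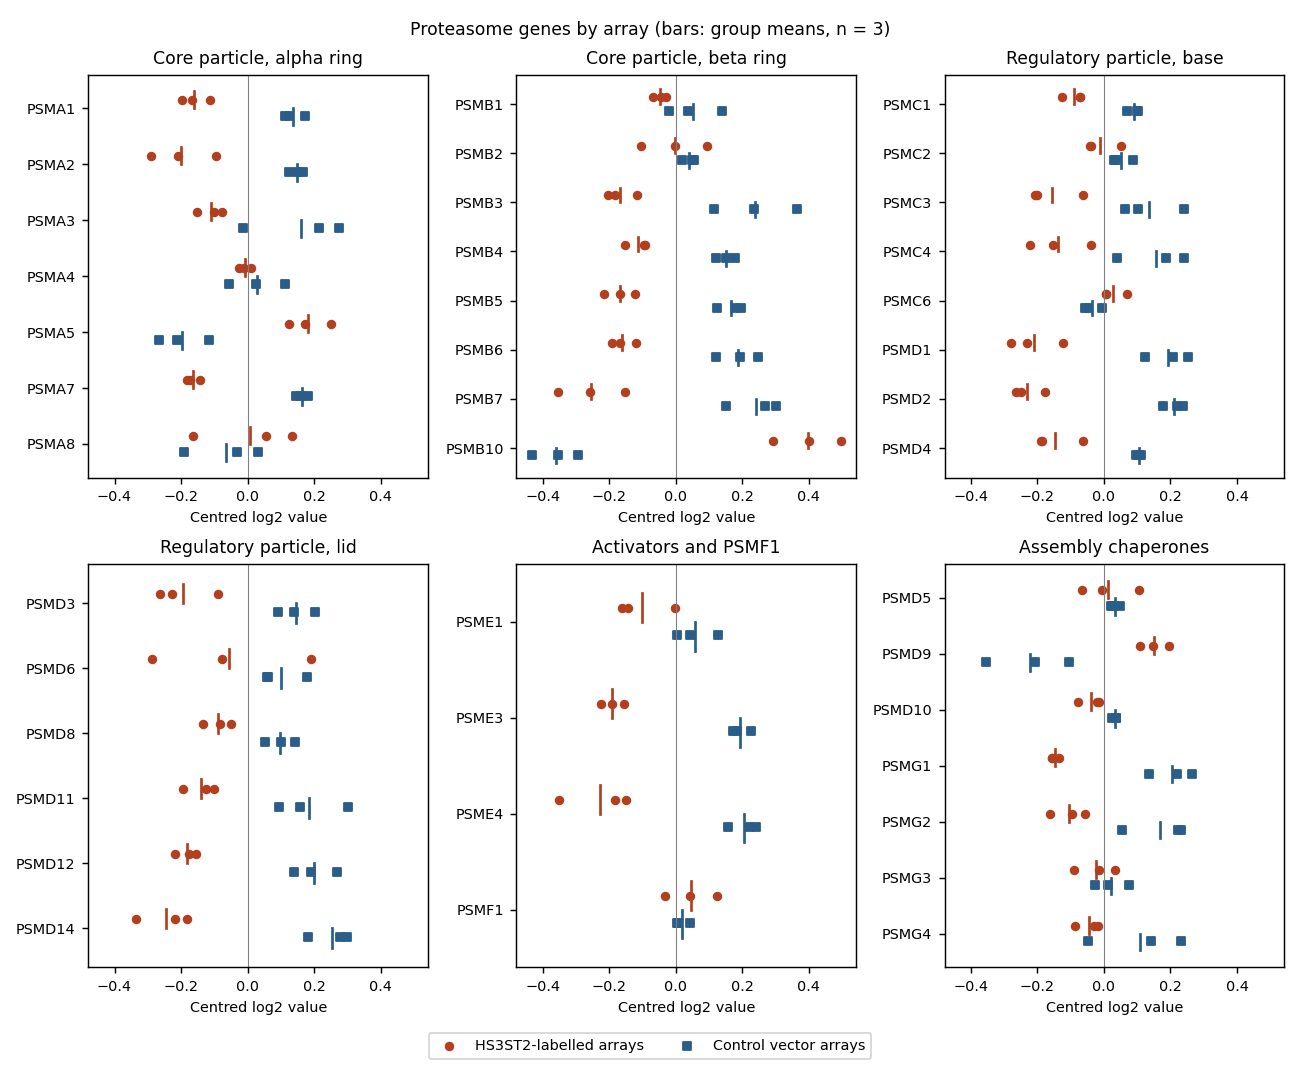
Centred log2 value (x axis) of each of the 40 proteasome genes (y axis) in each of 6 arrays, with circles for the 3 HS3ST2-labelled arrays, squares for the 3 control vector arrays and bars for the group means. In most panels the circles lie left of the squares. PSMA5, PSMB10, PSMD9 and PSMC6, which was not called, show the opposite order.

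Some control probe sets of the array moved with the groups. The median of the GAPDH control probe sets was -0.14 ± 0.01 log2 (SD, n = 3) in the HS3ST2-labelled arrays and 0.13 ± 0.01 in the control arrays. For ACTB it was -0.10 ± 0.05 and 0.12 ± 0.08. For ribosomal RNA it was 0.54 ± 0.78 and -0.15 ± 0.18, with HS3ST2 replicate 3 at 1.42 and the other 5 arrays between -0.30 and 0.24. The part of these signals in the result was not tested. Without HS3ST2 replicate 3, 18 of the 40 genes were lower and 3 higher, where 2026 and 1779 of all 19775 genes were called in those directions.

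In the alpha ring, 4 of 7 genes fell and 1 rose, beside 13.0% and 11.5% of all genes. The median difference was -0.27 log2. PSMA7 was at -0.14, -0.18 and -0.17 log2 in the HS3ST2-labelled arrays, against 0.14, 0.18 and 0.16 in the control arrays. PSMA1 was at -0.20, -0.11 and -0.17, against 0.13, 0.17 and 0.11. The arrays of each group lay close together and far from the other group in both genes, with differences of -0.33 ± 0.05 for PSMA7 and -0.30 ± 0.05 for PSMA1 (SE, n = 3 per group, limma adjusted p 0.00202 and 0.00436). PSMA2 fell by 0.35 ± 0.06 (adjusted p 0.00496). PSMA3 fell by 0.27 ± 0.08 (adjusted p 0.0433), with control replicate 3 at -0.01, near the HS3ST2-labelled values of -0.08, -0.15 and -0.10. Its call was lost with 5 of the 6 left-out arrays (adjusted p up to 0.127) and when replicate number was added to the model as a block (adjusted p 0.0533). PSMA4 did not pass (-0.04, 95% interval -0.17 to 0.10), nor did PSMA8, the testis form of PSMA7 (0.07, interval -0.14 to 0.28).

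In the beta ring, 5 of 8 genes fell and 1 rose, beside 13.0% and 11.5% of all genes, with a median of -0.30 log2. All 3 constitutive catalytic genes fell. PSMB7, the trypsin-like site, was at -0.15, -0.36 and -0.26 log2 in the HS3ST2-labelled arrays, against 0.30, 0.27 and 0.15 in the control arrays. PSMB6, the caspase-like site, was at -0.17, -0.12 and -0.19, against 0.25, 0.12 and 0.19. PSMB5, the chymotrypsin-like site and the main target of proteasome inhibitor drugs, was at -0.22, -0.12 and -0.17, against 0.20, 0.12 and 0.18. The groups were apart in each of the 3 genes, by -0.50 ± 0.07, -0.35 ± 0.06 and -0.33 ± 0.05 log2 (SE, limma adjusted p 0.00168, 0.00293 and 0.00286). Of the structural beta genes, PSMB3 fell by 0.41 ± 0.07 and PSMB4 by 0.26 ± 0.05, while PSMB1 (-0.10, interval -0.23 to 0.03) and PSMB2 (-0.04, interval -0.19 to 0.10) did not pass.

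PSMB10 encodes the inducible subunit that takes the place of PSMB7 in the immunoproteasome. It was at 0.29, 0.40 and 0.50 log2 in the HS3ST2-labelled arrays, against -0.29, -0.43 and -0.36 in the control arrays. Every HS3ST2-labelled array was higher than every control array, and the rise of 0.76 ± 0.07 log2 (SE, limma adjusted p 2.04e-04), or 1.69-fold, was the largest difference of any of the 40 genes in either direction. It rests on 1 probe set. The other inducible catalytic genes, PSMB8 and PSMB9, did not pass: PSMB9 was at 0.08, 0.08 and 0.04 in the HS3ST2-labelled arrays, against -0.11, -0.13 and -0.04 (0.16 ± 0.05, adjusted p 0.0571), and PSMB8 differed by 0.05 (interval -0.08 to 0.17).

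The balance of inducible over constitutive subunits was taken within each array as the difference of their centred values, a comparison chosen after the values were seen. For PSMB10 minus PSMB7 it was 0.44, 0.76 and 0.75 log2 in the HS3ST2-labelled arrays, against -0.59, -0.70 and -0.51 in the control arrays, a difference of 1.25. For PSMB9 minus PSMB6 the difference was 0.51, and for PSMB8 minus PSMB5 it was 0.38. These differences are a description with no test, since the values of the single genes were known when the pairs were formed. In the pairs of PSMB9 and PSMB8 the constitutive gene was called lower and the inducible gene was not called.

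**Figure D2:**
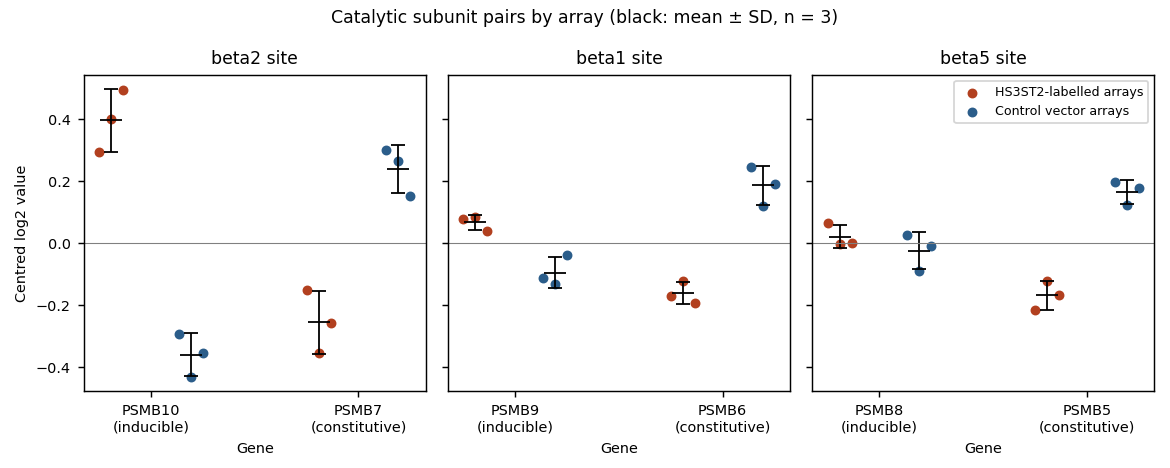
Centred log2 value (y axis) of the inducible and the constitutive gene of each catalytic site (x axis), with 1 point per array, HS3ST2-labelled arrays left of control vector arrays, and black bars for the mean ± SD of 3 arrays. PSMB10 was higher and PSMB7, PSMB6 and PSMB5 were lower in the HS3ST2-labelled arrays, while PSMB8 overlapped.

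In the base, 6 of 8 genes fell and none rose, beside 13.0% and 11.5% of all genes, and the median was -0.27 log2. PSMD2, a scaffold that docks ubiquitin carriers, was at -0.18, -0.26 and -0.25 log2 in the HS3ST2-labelled arrays, against 0.24, 0.22 and 0.18 in the control arrays. PSMD1, the other large scaffold, was at -0.23, -0.28 and -0.12, against 0.25, 0.21 and 0.12. Both scaffolds separated the groups, by -0.44 ± 0.05 and -0.40 ± 0.06 (SE, limma adjusted p 6.81e-04 and 0.0026). The ubiquitin receptor PSMD4 fell by 0.25 ± 0.06. Of the 5 measured ATPases, PSMC3 and PSMC4 fell by 0.29 each and PSMC1 by 0.18, while PSMC2 (-0.06, interval -0.19 to 0.06) and PSMC6 (0.06, interval -0.05 to 0.18) did not pass. The ATPase calls were less firm than those of the scaffolds: 3 base genes were called without HS3ST2 replicate 3. PSMC1 lost its call whichever array was left out (adjusted p up to 0.097), PSMC4 with 4 of the 6 and PSMC3 with 2.

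In the lid, 5 of 6 genes fell and none rose, beside 13.0% and 11.5% of all genes. The median was -0.33 log2, or -0.19 without probe sets whose names end in _x_at or _s_at. Such probe sets can share signal between genes or transcripts. PSMD12 has no others, so it is not in the second median. PSMD14, the enzyme that cuts ubiquitin chains off substrates at the entry to the base, was at -0.34, -0.18 and -0.22 log2 in the HS3ST2-labelled arrays, against 0.28, 0.30 and 0.18 in the control arrays. The gap between the groups was wider than the range within either, and the difference of -0.50 ± 0.06 (SE, limma adjusted p 9.28e-04) left 70.8% of the control value. PSMD12, PSMD3 and PSMD11, scaffold subunits of the lid, fell by 0.38 ± 0.06, 0.34 ± 0.06 and 0.32 ± 0.07. PSMD11 averaged a probe set at -0.51, which was called, and one at -0.14, which was not. Without _x_at and _s_at probe sets PSMD11 was not called (-0.14, limma adjusted p 0.184). PSMD8 fell by 0.19 ± 0.05 (adjusted p 0.0375), a call lost whichever array was left out (adjusted p up to 0.118). PSMD6 was at -0.29, -0.08 and 0.19, against 0.06, 0.18 and 0.06, and the spread within the HS3ST2-labelled arrays covered the control values.

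Activators can cap the core particle in place of the regulatory particle. Of the activator genes and PSMF1, 2 of 4 fell and none rose, beside 13.0% and 11.5% of all genes. PSME3, which forms the nuclear PA28 gamma cap, was at -0.23, -0.19 and -0.16 log2 in the HS3ST2-labelled arrays, against 0.18, 0.23 and 0.17 in the control arrays. PSME4, the large PA200 activator, was at -0.18, -0.35 and -0.15, against 0.24, 0.16 and 0.22. The groups were clearly apart in both, by -0.38 ± 0.05 and -0.43 ± 0.07 (SE, limma adjusted p 0.00118 and 0.00254). Taken singly, 3 of the 4 probe sets of PSME3 were called lower. For PSME4 it was 1 of 3, with differences from -0.56 to -0.23. PSME1, a subunit of the interferon-induced PA28 cap, did not pass (-0.16 ± 0.06, interval -0.31 to -0.01, adjusted p 0.114), although every HS3ST2-labelled array was below every control array. PSMF1, first described as an inhibitor of the core particle, was at 0.04, 0.13 and -0.03, against 0.04, 0.00 and 0.01 (0.03, interval -0.11 to 0.16).

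The assembly chaperones had a median difference of -0.07 log2. Of their 7 genes, 2 (28.6%) were lower and 1 (14.3%) was higher, beside 13.0% and 11.5% of all genes. The median moved with the choice of probe sets, which also changed the genes counted. It was -0.19 without _x_at and _s_at probe sets, where PSMD9 dropped out. With RefSeq mRNA records only it was -0.22, and PSMD5, PSMG3 and PSMG4 dropped out. PSMG1, which with PSMG2 starts the alpha ring, was at -0.13, -0.16 and -0.16 log2 in the HS3ST2-labelled arrays, against 0.22, 0.26 and 0.13 in the control arrays. It fell by 0.35 ± 0.05 (SE, limma adjusted p 0.00242), and PSMG2 fell by 0.27 ± 0.07 (adjusted p 0.0186). PSMG2 lost its call with 3 of the 6 left-out arrays. Only 1 chaperone gene was called lower when HS3ST2 replicate 3, control replicate 1 or control replicate 2 was left out, and 3 when control replicate 3 was. The second pair of alpha ring chaperones, PSMG3 (-0.04, interval -0.18 to 0.09) and PSMG4 (-0.16, interval -0.33 to 0.02), did not pass. Nor did PSMD5 (-0.02, interval -0.16 to 0.12) and PSMD10 (-0.07, interval -0.19 to 0.04), which hold ATPases during assembly of the base, whereas PSMD9, another chaperone of the base, was called higher.

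**Figure D3:**
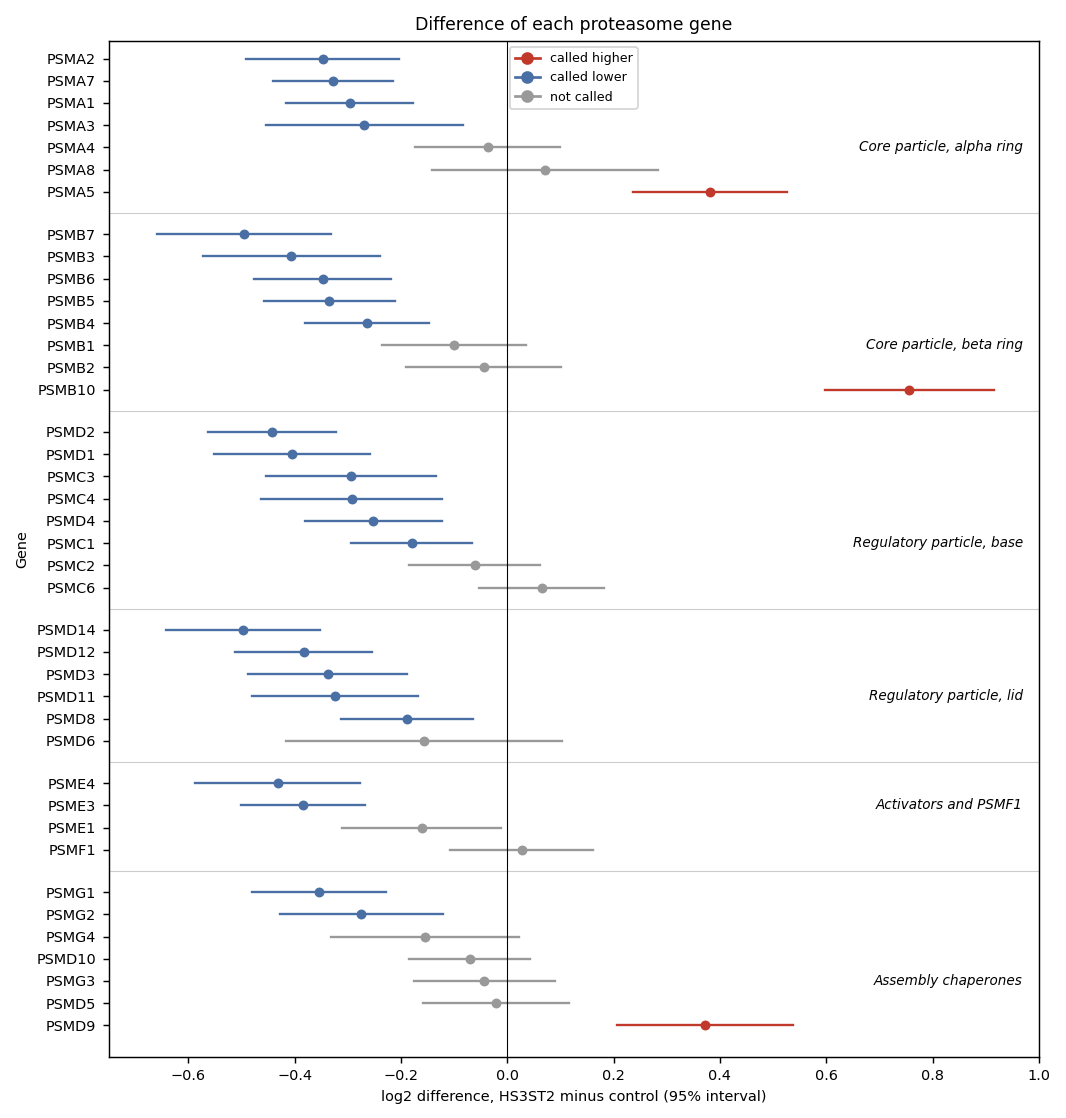
log2 difference, HS3ST2-labelled minus control (x axis), of each of the 40 genes (y axis), grouped by place in the proteasome, with the 95% interval of limma. Of the genes called at an adjusted p under 0.05, 24 lie left of 0 and 3 right of it, from -0.50 for PSMD14 to 0.76 for PSMB10.

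Averaging hid disagreement between the probe sets of some genes. Of the 22 genes with more than 1 probe set, 9 had probe sets that differed by over 0.3 log2, and none had probe sets called in both directions. Over single probe sets, 36 of 79 were called lower and 3 higher. Of all 54613 probe sets, with any number of symbols or none, 8.98% and 7.9% were called in those directions. Of the proteasome probe sets targeted at a RefSeq mRNA record, 19 of 32 were lower and 1 higher, beside 14.1% and 9.48% of all such probe sets with 1 symbol. Of those with other targets, 17 of 47 were lower and 2 higher, beside 9.16% and 8.99%. For PSMA5, an alpha ring gene that rose by 0.38 ± 0.06 log2 (SE, limma adjusted p 0.00318) on average, 1 probe set was at 0.49, 0.58 and 0.37 in the HS3ST2-labelled arrays, against -0.62, -0.37 and -0.50 in the control arrays. The other was at -0.15, -0.07 and -0.12, against 0.09, 0.14 and 0.07. PSMD9, which rose by 0.37 ± 0.07 (adjusted p 0.00698), likewise joined a probe set at 0.91 and one at -0.17. Both called rises besides that of PSMB10 thus averaged 1 probe set that rose steeply and 1 that was lower without passing.

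The 4 probe sets of PSMB2 ranged from -0.42 to 0.15, and the 3 of PSMC2 from -0.36 to 0.21. In both, the lowest was called and no other was. An alternative chosen after this was seen used only the probe sets whose annotated target is a RefSeq mRNA record, in all genes. Of the 31 proteasome genes that have such a probe set, 22 were then lower and 1, PSMB10, was higher, where 17.9% and 12.8% of 9048 genes were called in those directions. PSMA5 was called lower (-0.21, limma adjusted p 0.018), as were PSMB2 (-0.42), PSMC2 (-0.36) and PSMD6 (-0.31), which had not passed as averages. PSMD9 was not called (-0.17), and PSMD12 lost its call, with its 2 probe sets at -0.06 and -0.71. Without _x_at and _s_at probe sets, 12 of 32 genes were lower and 2 higher, against 9.71% and 9.75% of all genes. There 5 of 13 core genes, 2 of 5 base genes and 2 of 5 lid genes were lower. PSMA2 (-0.21, limma adjusted p 0.0774) and PSMD4 (-0.14, adjusted p 0.297) were among the genes that lost their call.

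**Figure D4:**
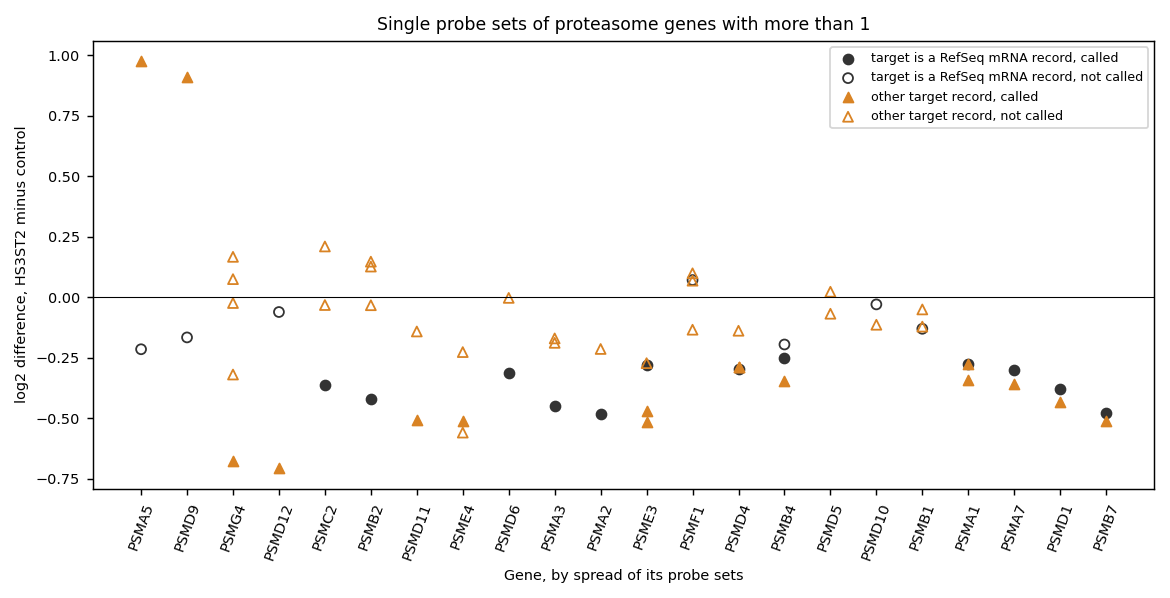
log2 difference, HS3ST2-labelled minus control (y axis), of each probe set of the 22 genes with more than 1 (x axis, ordered by spread), with circles for probe sets targeted at a RefSeq mRNA record, triangles for others, and filled symbols for calls. PSMA5 and PSMD9 each have 1 called probe set near 1 log2 and 1 below 0, whereas all the probe sets of PSMA1, PSMA7, PSMD1 and PSMB7 were called lower.

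The 40 genes are scattered over 17 chromosomes. For each, the median difference of the tested genes next to it, 10 on each side and proteasome genes left out, was taken as a description. Around the 24 genes that fell, these medians ran from -0.20 to 0.06 log2 with a median of -0.03. The lowest was around PSMB4 on chromosome 1, where 9 of 19 neighbours were called lower and 1 higher. PSMD4 lies within 10 tested genes of PSMB4, so their sets of neighbours share genes. Around PSMD4, 8 of 19 were lower and 2 higher. Over all genes, 13.0% were called lower. On chromosome 16, 5 of the 20 neighbours of PSMB10 were called higher and none lower, with a median of 0.12, beside 11.5% of all genes called higher. Around PSMD8 on chromosome 19, which fell, 5 of 20 were likewise higher and none lower, with a median of 0.05. PSMA7 and PSME4, which also fell, had 5 higher neighbours each, with 1 and 2 lower. These counts of neighbours were not tested. Among the neighbours of PSMB10, DPEP2, a dipeptidase gene, differed by 0.76 ± 0.16 and PSKH1, a kinase gene, by 0.35 ± 0.08. The nearest on each side of PSMB10, CTRL (-0.06) and LCAT (0.15), were not called.

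**Figure D5:**
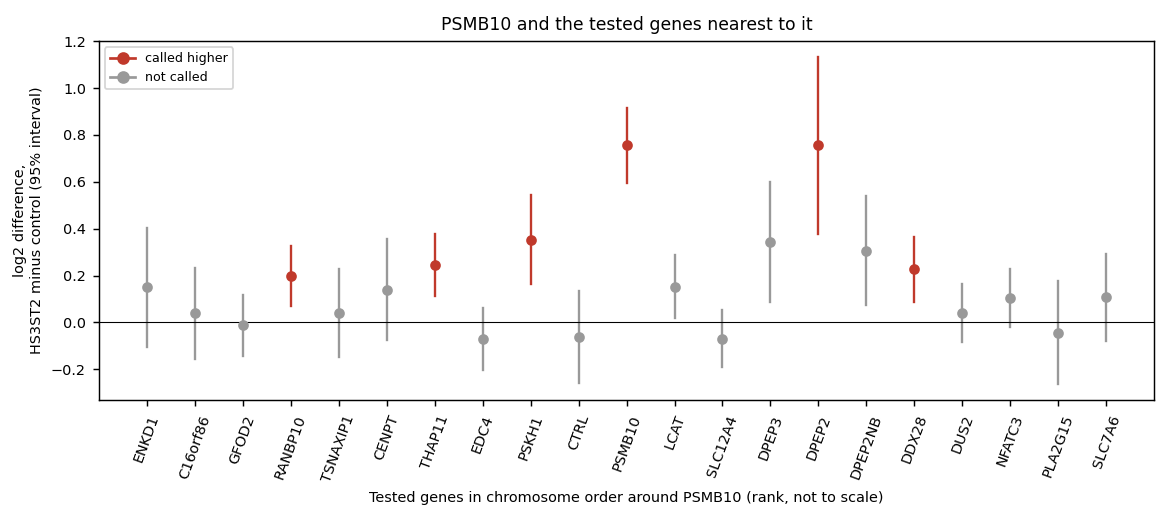
log2 difference, HS3ST2-labelled minus control (y axis), with the 95% interval of limma, of PSMB10 and the 10 tested genes on each side of it in chromosome order (x axis, by rank and not to scale). PSMB10 and 5 neighbours were called higher, and no gene of this stretch was called lower.

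Of 34 proteasome genes with a promoter entry in RefSeq, 9 held the antioxidant response element core in the 250 bases before their start, or 26.5%, against 11.0% of all 27305 promoters. It was found in 6 of 20 genes that fell, 1 of 3 that rose and 2 of 11 that did not pass. The ETS core was found in 14 of the 34, or 41.2%, against 14.8% of all promoters, with 7 of 20 among genes that fell and 6 of 11 among those that did not pass. The CCAAT box was found in 14, against 33.0% of all promoters, with 10 of 20 and 3 of 11. These counts describe letters in this window and were not tested.

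Of 17 measured genes that work with the proteasome but lie outside the naming rule, 4 were called lower and 2 higher, beside 13.0% and 11.5% of all genes, and no test compared these shares. The 4 called lower were ADRM1, a ubiquitin receptor of the base (-0.23 ± 0.05 log2, SE), SEM1, the smallest lid subunit (-0.25 ± 0.06), UCHL5, a ubiquitin-cleaving enzyme bound to ADRM1 (-0.31 ± 0.07), and RAD23B, which carries ubiquitinated proteins to the proteasome (-0.26 ± 0.05). Called higher were the carrier UBQLN2 (0.26 ± 0.07) and ZFAND5, which binds the proteasome (0.18 ± 0.05), and limma adjusted p was 0.0067 to 0.0427 over these 6 genes. Several of these calls were fragile: ZFAND5 lost its call whichever of the 6 arrays was left out (adjusted p up to 0.131), UBQLN2 with 5 of them, SEM1 with 3 and ADRM1 with 1. Without _x_at and _s_at probe sets the differences of UCHL5 (0.022) and ZFAND5 (-0.0345) turned in sign and were not called. ZFAND5 also lost its call with the replicate block (adjusted p 0.0663). POMP, which completes the core particle, was at 0.04, 0.09 and 0.10 in the HS3ST2-labelled arrays, against -0.11, -0.02 and -0.15 in the control arrays, and did not pass (0.17, interval 0.04 to 0.30).

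Of 8 measured genes that control proteasome transcription, 2 were called lower and none higher, beside the same shares over all genes and with no test of the difference. NFE2L1 was at -0.09, -0.13 and -0.10 log2 in the HS3ST2-labelled arrays, against 0.07, 0.15 and 0.22 in the control arrays. The groups did not overlap, and the difference was -0.26 ± 0.06 (SE, limma adjusted p 0.0127). VCP, the unfolding enzyme that helps release NFE2L1 from the endoplasmic reticulum, fell by 0.20 ± 0.06 (adjusted p 0.0345), a call lost with 5 of the 6 left-out arrays (adjusted p up to 0.110) and with the replicate block (adjusted p 0.0551). NFE2L2 (0.11), NFE2L3 (-0.02), NGLY1 (-0.16), MAFF (0.13), MAFG (-0.24) and KEAP1 (0.08) did not pass. Of 3 measured genes for ubiquitin and its activation, UBB (-0.07), UBA1 (-0.04) and UBA6 (-0.12), none passed by limma, and none had an unadjusted p under 0.05.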

How the data were processed

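The 6 arrays of MDA-MB-231 cells were grouped by title into 3 HS3ST2-labelled and 3 control vector arrays. RMA, which corrects background and summarises probes as log2 values, is named in the submitters' processing notes. The deposited log2 values are in addition centred, so that the median of the 6 arrays is 0 within 1e-06 in every probe set. No source names the software or log base of this step, and the base was taken as 2. Arrays have no counts, and their number limits precision.

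From these, 62 control probe sets were set aside. Of 54613 others, 41091 had 1 gene symbol in GEO's platform annotation, 1801 several and 11721 none. Probe sets with 1 symbol were averaged per gene, with symbols updated through gene numbers for 41037. limma 3.58.1 in R 4.3.3 (lmFit, eBayes) was run without covariates, adjusted over all 19775 genes, and was tested on simulated data.

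Members and lists were chosen with earlier results of these data known. Named genes are all called members, the catalytic, PSME and PSMF1 genes, PSMD14 and called genes of the 4 comparison lists, of which 30 of 36 genes were measured. Alternatives were the replicate block, left-out arrays, other scalings, array weights, other probe set choices, thresholds and robust eBayes. A filter on dim probe sets needs levels and was not run.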

Additional observations from a re-analysis of the deposited data

How the results depend on the processing

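The count of 24 lower and 3 higher proteasome genes was also 24 and 3 with quantile normalization, median centring, the probe set of largest SD and robust eBayes. It was 23 and 3 with array weights, 17 and 3 at an adjusted p under 0.01, and 24 and 3 at 0.1. Over left-out arrays it was 18 to 22 and 3, and with the replicate block 21 and 3. The counts over all 19775 genes moved as well, from 2571 lower and 2274 higher in the main fit. They were 1555 and 1285 at an adjusted p under 0.01, and 3242 and 2950 at 0.1. Left-out arrays gave 2025 to 2162 and 1729 to 1899, the replicate block 2312 and 1990, and array weights 2597 and 2343. Same-numbered arrays shared little beyond their number (r of deviations over genes 0.12, 0.05 and -0.08), and not every array correlated best with its own number. Of the 27 called members, 21 kept their call and direction with each array left out in turn, PSMC1 and PSMD8 lost it every time, and PSMA3, PSMC4, PSMG2 and PSMC3 lost it with 5, 4, 3 and 2 of the 6 arrays left out.

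The choice of probe sets mattered most among the settings run. Without _x_at and _s_at probe sets 12 genes were lower, and the group medians were -0.21 (core), -0.14 (base), -0.19 (lid), -0.16 (activators and inhibitor) and -0.19 log2 (chaperones), over fewer genes. With the probe set of largest SD they were -0.34 (core), -0.42 (lid), -0.34 (activators and inhibitor) and -0.11 (chaperones). With probe sets of RefSeq mRNA records only, 1 gene was higher and the medians of activators and inhibitor and of chaperones were -0.16 and -0.22. These medians also cover fewer genes than the main fit, since PSME4, PSMD5, PSMG3 and PSMG4 have no such probe set. A change of genes and a change of probe sets were not separated. The causes were not tested. Over left-out arrays the medians ran from -0.31 to -0.25 (core), -0.29 to -0.24 (base), -0.35 to -0.29 (lid), -0.29 to -0.25 (activators and inhibitor) and -0.08 to -0.07 (chaperones). Of 37 named genes under 14 settings, 434 of 501 comparisons kept their status, 63 lost the call and 4 reversed. Those 4 were UCHL5 (0.022) and ZFAND5 (-0.0345) without _x_at and _s_at probe sets, and PSMA5 (-0.21) and PSMD9 (-0.17) with RefSeq mRNA records only. A kept status meant the same call and direction, or no call in either fit whatever the sign. PSMF1, not called, ran from -0.01 to 0.07 log2 over left-out arrays.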
